A study of Homo sapiens with 3 samples.

Results

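The S100 proteins examined here are 10 genes of the small calcium-binding S100 family: S100B, S100A1, S100A2, S100A3, S100A4, S100A6, S100A10, S100A11, S100A13 and S100A16. They were chosen by gene symbol, and all 10 were found among the 24424 genes of the deposited count table. All 10 passed the count minimum (a mean of at least 50 counts over the libraries), as did 11956 genes in all. None of the 11 other S100 genes looked up passed it. The 10 were chosen with earlier results of these data known, so their passing it is not a result. The cells were A375SM, a metastatic subline of the human melanoma line A375, whose messenger RNA was sequenced after infection with lentiviral vectors that carry a green fluorescent reporter. The 3 groups were shPRAME (a hairpin against PRAME, genotype given as PRAME knockdown), shBAP1 (a hairpin against BAP1, genotype given as BAP1 knockdown) and shEmpty (the control vector, genotype given as WT). The labels call shEmpty a non-targeting hairpin in one place, while its name denotes an empty vector. Each group was 1 stable population, selected for the reporter, and 1 library.

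Because each group is a single library, differences could not be set against replicate spread and no test was run. Library totals were 18456328 counts (shPRAME), 14181829 counts (shBAP1) and 19430130 counts (shEmpty). Levels are CPM (counts scaled to library size) after TMM scaling, which aligns the bulk of the genes between libraries. Folds are ratios of these levels, given with an exact 95% counting interval. A gene is called higher or lower in a library where the ratio was at least 2-fold and its interval left out no change. Such a call compares 2 libraries and not the conditions, since intervals cover counting error only. The hairpin targets followed their labels, with PRAME at 32.9% of shEmpty in shPRAME and BAP1 at 35.2% of shEmpty in shBAP1. In bulk RNA, fewer cells with a transcript and less of it per cell cannot be told apart.

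S100 proteins are small proteins with a pair of EF-hands, the helix-loop-helix fold that holds calcium. Most form dimers that open a binding face when calcium rises and then dock onto annexins, cytoskeletal proteins or p53, and several are also released and bind cell-surface receptors such as RAGE. In pigment cells and melanoma, S100B is a long-used tissue and serum marker, S100A4 is known for its link to motility and metastasis, and S100A6 and S100A10 are abundant in many cultured tumour cells. Most S100A genes lie together on the long arm of chromosome 1, and S100B lies apart on chromosome 21.

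The level in shPRAME was above that in shEmpty for 8 of the 10 S100 genes, beside 46.4% of all measured genes. The level in shBAP1 was above it for 6 and below it for 4, beside 47.6% of all measured genes above it. Those above include S100A2 and S100A11 in shPRAME, and S100A2 and S100A10 in shBAP1, whose intervals included no change. In shPRAME 4 of the 10 genes were higher than in shEmpty (S100A1, S100A3, S100A4 and S100A16), none was lower and 6 were called neither. Of all measured genes 19.3% were called in that comparison, 10.2% higher and 9.08% lower. In shBAP1 3 of the 10 genes were higher than in shEmpty (S100B, S100A3 and S100A4), none was lower and 7 were called neither. There, 14.1% of all measured genes were called, 5.53% higher and 8.56% lower. Scaling by total count in place of TMM moved the share of higher genes among all calls in shBAP1 to 49.8%, against 39.2%, and left the 3 S100 calls in place. The median log2 ratio of the 10 genes was 0.62 in shPRAME against shEmpty, beside -0.06 over all measured genes, and 0.14 in shBAP1 against shEmpty, beside -0.03.

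**Figure D1:**
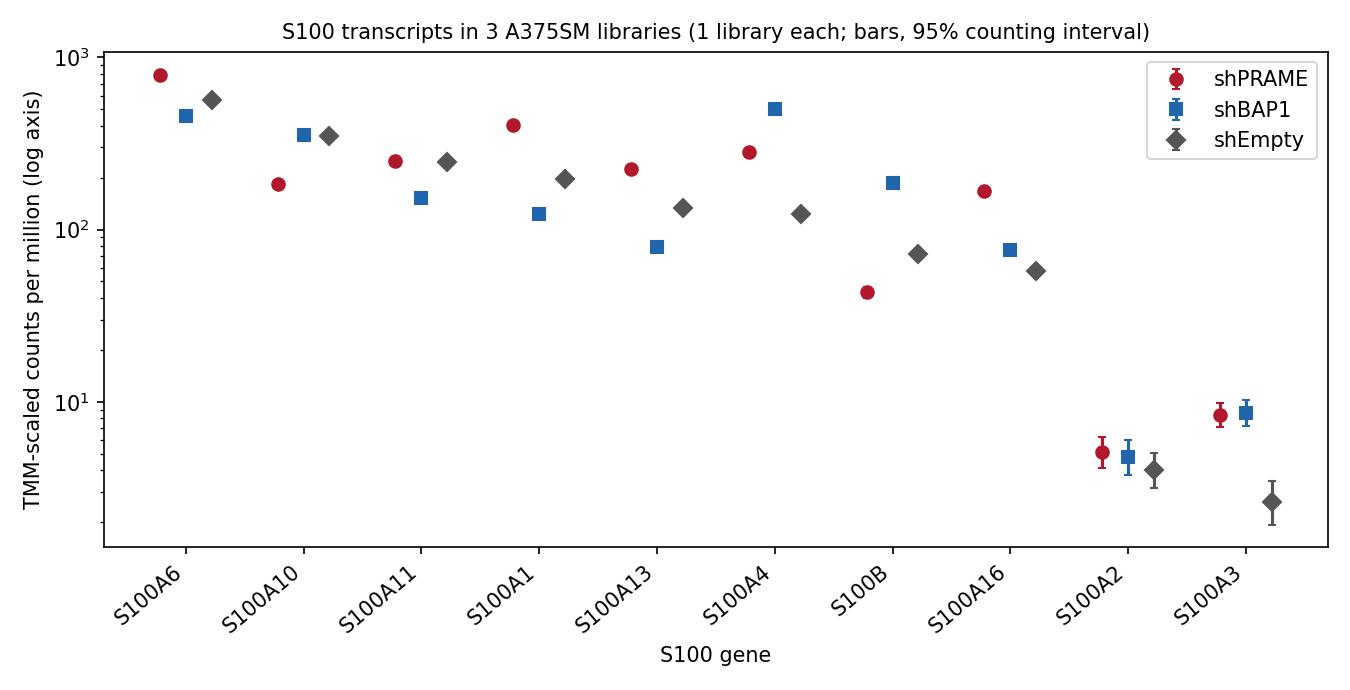
TMM-scaled CPM of the 10 S100 genes on a log axis, with circles for shPRAME, squares for shBAP1 and diamonds for shEmpty; bars are 95% counting intervals of 1 library each. S100A6, S100A10 and S100A11 are the 3 with the highest CPM in shEmpty, S100A4 is highest in shBAP1, and S100A2 and S100A3 lie below 10 CPM in all 3 libraries.

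S100A4 and S100A3 were the members called higher in both knockdown libraries. S100A4, which binds nonmuscle myosin and is known from metastatic cells, had 5188 counts or 284 CPM in shPRAME, 7395 counts or 498 CPM in shBAP1 and 2317 counts or 124 CPM in shEmpty. The control was thus the lowest library and shBAP1 the highest. S100A4 was 2.29-fold higher in shPRAME (2.18 to 2.41) and 4.03-fold higher in shBAP1 (3.84 to 4.22). S100A3, a zinc-binding member best known from the hair cuticle, had 154 counts or 8.42 CPM in shPRAME, 128 counts or 8.62 CPM in shBAP1 and 49 counts or 2.62 CPM in shEmpty. It was 3.22-fold higher in shPRAME (2.32 to 4.54) and 3.30-fold higher in shBAP1 (2.35 to 4.68), with intervals wider than those of S100A4 because of its low counts. Both ratios of each gene share the shEmpty library, so the knockdown values are not independent of each other.

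The annotated S100A3 and S100A4 genes overlap over 2044 bases on the same strand in GENCODE 29, so reads could have been assigned to either where their transcripts meet. The count ratio of S100A4 to S100A3 was 33.7 in shPRAME (28.7 to 39.8), 57.8 in shBAP1 (48.5 to 69.4) and 47.3 in shEmpty (35.6 to 64.1). The interval of shEmpty overlapped those of both knockdown libraries, and the part of shared reads in the S100A3 values was not tested. The 250 bases before the start of each of these genes are shown here with those of S100A1 and S100A10, because these 4 genes show 3 different patterns over the libraries and each has 1 start in the table. The sequences are RefSeq's on GRCh38.p14, given 5′ to 3′ on the gene's own strand. Capitals mark the matches found on either strand to 5 short motifs. The TATA box was searched as the letters TATAAA. The motif of AP-1 factors was searched as TGANTCA. The GC box bound by SP1 was searched as GGGCGG. The E-box of basic helix-loop-helix factors was searched as CACGTG, and the motif of TEAD factors as GGAATG.
S100A3 (chr1:153549259-153549508, minus strand): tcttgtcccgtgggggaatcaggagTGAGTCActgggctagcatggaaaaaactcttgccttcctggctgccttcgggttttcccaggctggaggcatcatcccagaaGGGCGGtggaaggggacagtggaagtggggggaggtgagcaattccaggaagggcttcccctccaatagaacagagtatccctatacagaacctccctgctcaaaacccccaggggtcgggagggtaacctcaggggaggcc
S100A4 (chr1:153545807-153546056, minus strand): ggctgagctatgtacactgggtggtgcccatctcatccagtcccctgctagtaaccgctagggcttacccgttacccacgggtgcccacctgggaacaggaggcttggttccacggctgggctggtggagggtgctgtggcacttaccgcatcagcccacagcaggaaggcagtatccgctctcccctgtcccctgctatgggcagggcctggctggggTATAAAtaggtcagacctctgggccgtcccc
S100A1 (chr1:153628184-153628433, plus strand): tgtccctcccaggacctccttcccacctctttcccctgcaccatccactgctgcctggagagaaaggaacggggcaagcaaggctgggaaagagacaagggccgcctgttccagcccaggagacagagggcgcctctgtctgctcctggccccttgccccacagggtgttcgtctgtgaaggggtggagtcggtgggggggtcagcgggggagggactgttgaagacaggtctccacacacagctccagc
S100A10 (chr1:151993860-151994109, minus strand): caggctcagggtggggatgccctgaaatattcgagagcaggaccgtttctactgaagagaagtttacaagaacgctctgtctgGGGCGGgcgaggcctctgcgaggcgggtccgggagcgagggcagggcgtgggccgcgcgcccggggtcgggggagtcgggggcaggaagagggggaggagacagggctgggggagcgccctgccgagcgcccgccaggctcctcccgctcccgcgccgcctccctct

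Upstream of S100A4 the letters of a TATA box began 31 bases before the start. Upstream of S100A3 an AP-1 match began 225 bases and a GC box 142 bases before the start, and upstream of S100A10 a GC box began 167 bases before it. The S100A1 window held none of the 5 motifs. Among 35116 such windows of all genes, 10.7% held the TATA box, 6.57% the AP-1 motif, 42.6% the GC box, 6.35% the E-box and 11.9% the TEAD motif. Of 13 windows of 9 members, 2 held the TATA box, 2 the AP-1 motif, 6 the GC box, 0 the E-box and 1 the TEAD motif. The S100A3 and S100A4 windows shared none of these matches. A match describes the letters of the window and not a bound site.

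S100A1, S100A16 and S100A13 stood higher in shPRAME than in shBAP1. S100A1, a regulator of calcium handling in heart and skeletal muscle, had 7406 counts or 405 CPM in shPRAME, 1833 counts or 123 CPM in shBAP1 and 3664 counts or 196 CPM in shEmpty. It was 2.07-fold higher in shPRAME than in shEmpty, with an interval (1.99 to 2.16) that reached below 2-fold, and in shBAP1 its ratio to shEmpty was 0.631 (0.597 to 0.668). S100A13, which takes part in the non-classical release of FGF1 and interleukin 1 alpha, had 4133 counts or 226 CPM in shPRAME, 1180 counts or 79.5 CPM in shBAP1 and 2487 counts or 133 CPM in shEmpty. Its ratios to shEmpty were 1.70 in shPRAME (1.62 to 1.79) and 0.599 in shBAP1 (0.558 to 0.642), both short of the 2-fold limit. These neighbours therefore had the same order of libraries, with shPRAME highest and shBAP1 lowest.

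S100A1 and S100A13 lie on opposite strands and overlap over 3435 bases in the annotation. The library kit keeps strand, but whether counting used it is not given in the sources used here, so reads of one could be counted for the other. The count ratio of S100A1 to S100A13 was 1.79 in shPRAME (1.72 to 1.86), 1.55 in shBAP1 (1.44 to 1.67) and 1.47 in shEmpty (1.40 to 1.55). S100A16, a widely expressed member, overlaps no other gene of that annotation. It had 3046 counts or 167 CPM in shPRAME, 1127 counts or 75.9 CPM in shBAP1 and 1074 counts or 57.3 CPM in shEmpty. It was 2.91-fold higher in shPRAME than in shEmpty (2.71 to 3.12), and its ratio in shBAP1 was 1.32 (1.22 to 1.44).

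S100B was the member whose knockdown libraries stood farthest apart. It is the glial and melanocytic member, known to bind p53 and used in the clinic as a melanoma marker. It had 790 counts or 43.2 CPM in shPRAME, 2768 counts or 186 CPM in shBAP1 and 1356 counts or 72.4 CPM in shEmpty, so the control lay between the knockdown libraries. It was 2.58-fold higher in shBAP1 than in shEmpty (2.41 to 2.75), while its ratio in shPRAME was 0.597 (0.546 to 0.652), short of the limit. Against shBAP1, S100B in shPRAME was 4.32-fold lower (3.99 to 4.68).

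Markers of the pigment cell lineage were measured beside S100B. Of 9 measured melanocyte and neural crest genes, 4 were higher and none lower in shBAP1 against shEmpty (TYR, TYRP1, DCT and EDNRB). In shPRAME 2 were lower and none higher (MITF and DCT). Among all measured genes 5.53% were higher in shBAP1 and 9.08% were lower in shPRAME. The summed level of the 11 listed genes was 1642 CPM in shPRAME, 1996 CPM in shBAP1 and 1531 CPM in shEmpty. SOX10, the lineage factor of melanocytes and Schwann cells, was at 657 CPM in shPRAME, 367 CPM in shBAP1 and 506 CPM in shEmpty, with shPRAME highest and shBAP1 lowest. DCT, an enzyme of melanin synthesis, had 6 counts in shPRAME, 1668 in shBAP1 and 192 in shEmpty, and TYR had 0, 573 and 4 counts in the same order of libraries. TYRP1 had 1 count in shPRAME, 1037 in shBAP1 and 0 in shEmpty. PAX3 was at 10.8 CPM in shPRAME, 17.4 CPM in shBAP1 and 15.4 CPM in shEmpty. DCT, TYR and PAX3 thus had the order of libraries of S100B, with shBAP1 highest and shPRAME lowest, and SOX10 had the opposite order. The part of these genes' state in the S100B values was not tested.

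The annexin-binding members were abundant and passed no call against shEmpty. S100A10, the partner of annexin A2 that has lost calcium binding and helps to anchor plasminogen activation at the cell surface, had 3363 counts or 184 CPM in shPRAME, 5272 counts or 355 CPM in shBAP1 and 6523 counts or 348 CPM in shEmpty. The level in shPRAME was the lowest, at 0.528 of shEmpty (0.507 to 0.551), and in shBAP1 the ratio of 1.02 had an interval that included no change (0.984 to 1.06). S100A11, a partner of annexin A1, had 4585 counts or 251 CPM in shPRAME, 2268 counts or 153 CPM in shBAP1 and 4624 counts or 247 CPM in shEmpty. Its ratio to shEmpty was 1.02 in shPRAME (0.975 to 1.06) and 0.619 in shBAP1 (0.588 to 0.651). S100A10 was thus low in shPRAME and S100A11 in shBAP1. S100A6, or calcyclin, had 14391 counts or 787 CPM in shPRAME, 6808 counts or 459 CPM in shBAP1 and 10650 counts or 568 CPM in shEmpty. Its ratio to shEmpty was 1.38 in shPRAME (1.35 to 1.42) and 0.807 in shBAP1 (0.783 to 0.832).

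S100A2, a nuclear member of epithelial cells and a known p53 target, was scarce. It had 93 counts or 5.09 CPM in shPRAME, 71 counts or 4.78 CPM in shBAP1 and 75 counts or 4.003 CPM in shEmpty. Its ratio to shEmpty was 1.27 in shPRAME (0.927 to 1.75) and 1.19 in shBAP1 (0.851 to 1.68). S100A2 was the 1 member for which both intervals against shEmpty included no change, so a difference was not detectable at this depth.

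**Figure D2:**
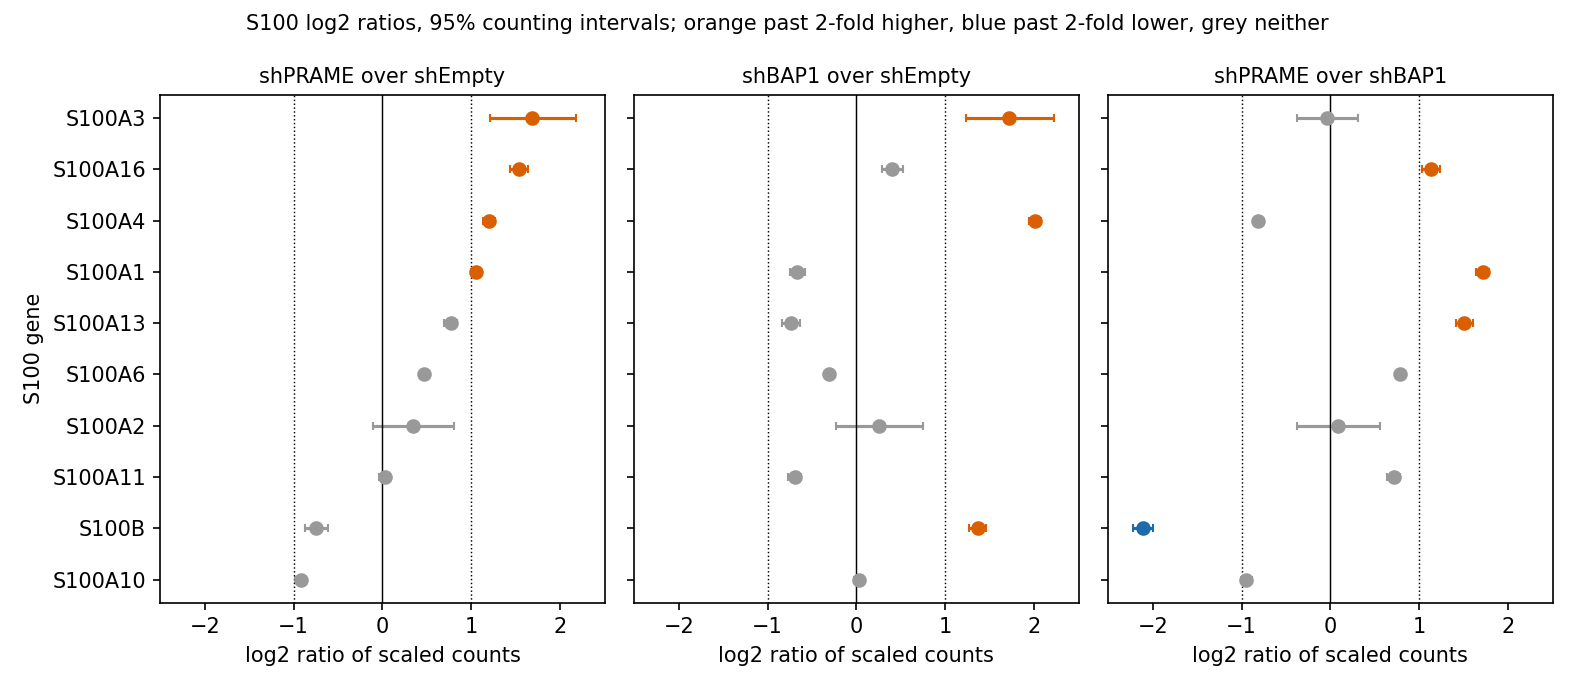
Log2 ratios of the 10 S100 genes in shPRAME over shEmpty (left), shBAP1 over shEmpty (middle) and shPRAME over shBAP1 (right), with 95% counting intervals and dotted lines at 2-fold. S100A3 and S100A4 are past the limit in both comparisons with shEmpty, and S100B is the 1 gene past it on the lower side, in shPRAME over shBAP1.

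In the direct comparison of the knockdowns, 3 members were higher in shPRAME than in shBAP1, 1 was lower and 6 were called neither. Of all measured genes 25.1% were called, 14.2% higher and 10.9% lower. S100A1 was 3.28-fold higher (3.12 to 3.45), S100A13 2.84-fold higher (2.67 to 3.04) and S100A16 2.19-fold higher (2.05 to 2.35), and S100B was the lower gene. S100A10 had a ratio of 0.518 (0.496 to 0.541), a log2 ratio of -0.95, and passed as lower with scaling by total count (-1.03). S100A4, higher in both against shEmpty, had a ratio of 0.570 (0.550 to 0.590). S100A3 had a ratio of 0.977 whose interval included no change (0.768 to 1.24).

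Levels of different genes were compared per kilobase of transcript, with the median length of each gene's protein-coding transcripts in GENCODE 29. S100A6 was first of the 10 in shPRAME with 1170 CPM per kilobase and in shEmpty with 845, whereas in shBAP1 S100A4 was first with 875 and S100A6 second with 681. S100A4 had 498 CPM per kilobase in shPRAME, behind S100A6 and S100A1, and 217 in shEmpty, behind 5 other members. In shPRAME S100A1 was second with 682 CPM per kilobase, and S100A11 (422) and S100A13 (402) had overlapping intervals. In shBAP1 S100B (213) and S100A1 (208) had overlapping intervals. All other neighbours in the order of each library were apart beyond counting error, down to S100A3 (11.7) and S100A2 (8.12) at the low end of shPRAME. In shEmpty the lowest was S100A3 (3.64 CPM per kilobase) below S100A2 (6.39). S100A6 ranked above 99.8% of measured genes per kilobase in shPRAME, 99.2% in shBAP1 and 99.5% in shEmpty.

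The make-up of the family differed between the libraries. The summed level of the 10 genes was 2360 CPM in shPRAME, 1943 CPM in shBAP1 and 1752 CPM in shEmpty, so the sum was 1.35 times the control in shPRAME (1.33 to 1.37) and 1.11 times in shBAP1 (1.09 to 1.13). S100A4 made up 13.8% of the level per kilobase in shPRAME, 30.6% in shBAP1 and 8.44% in shEmpty. S100A1 made up 18.9% in shPRAME, 7.27% in shBAP1 and 12.8% in shEmpty. S100A10 made up 5.61% in shPRAME, 13.7% in shBAP1 and 14.9% in shEmpty. S100B made up 1.37% in shPRAME, 7.44% in shBAP1 and 3.21% in shEmpty. S100A6 held 32.4% in shPRAME, 23.8% in shBAP1 and 32.8% in shEmpty.

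**Figure D3:**
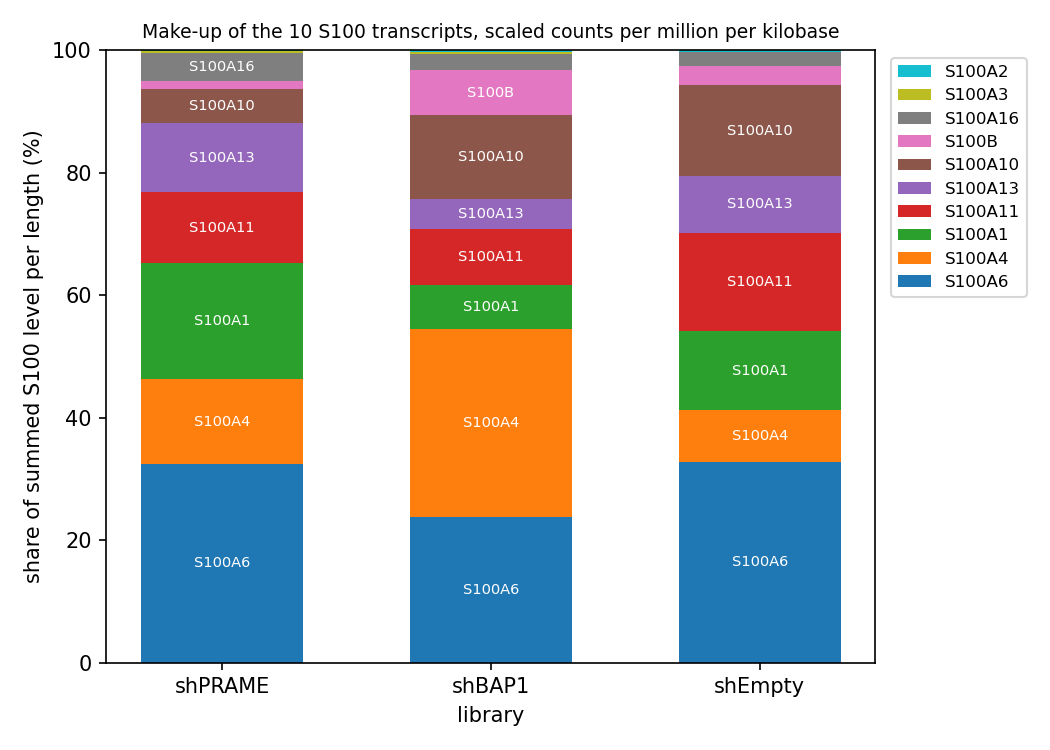
Share of each S100 gene in the summed level per kilobase of the 10 genes, by library. S100A4 is the largest block in shBAP1 (30.6%) and S100A6 in shPRAME (32.4%) and shEmpty (32.8%).

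The other 11 S100 genes looked up were near absence. S100A8, S100A12, S100A7, S100A7A and S100A7L2 had no count in any library, and S100A9 had 0 counts in shPRAME, 2 in shBAP1 and 0 in shEmpty. S100A8, S100A9 and S100A12 are the inflammatory members of myeloid cells and S100A7 is an epidermal one. At 0 counts the limit is 3 counts, equal to 0.164 CPM in shPRAME, 0.202 CPM in shBAP1 and 0.160 CPM in shEmpty. S100Z had 13 counts in shPRAME, 11 in shBAP1 and 0 in shEmpty, and S100A14 had 11, 1 and 6 counts in the same order of libraries. S100A5 had 9 counts in shPRAME, 0 in shBAP1 and 6 in shEmpty. S100P and S100G had at most 3 counts in a library.

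Markers of other cell types that express S100 genes were looked up. Of 9 myeloid genes 1 was measured (CD68), TYROBP, AIF1 and FCGR3A had no count in any library, and the summed level was 150 CPM in shPRAME, 65.5 CPM in shBAP1 and 51.7 CPM in shEmpty, most of it CD68 (144, 61.7 and 49.0 CPM). Of 10 fibroblast genes, a cell type known for S100A4, 6 were measured. In shPRAME 4 of them were higher (COL1A2, PDGFRB, FAP and FBLN1) and none lower. In shBAP1 2 were higher (COL1A2 and FAP) and 2 lower (PDGFRA and FBLN1). Among all measured genes 10.2% were higher in shPRAME, and in shBAP1 5.53% were higher and 8.56% lower. The summed level of the 10 fibroblast genes was 814 CPM in shPRAME, 276 CPM in shBAP1 and 77.4 CPM in shEmpty. COL1A2 was most of it in both knockdown libraries, and without COL1A2 the sum was 144 CPM in shPRAME, 105 CPM in shBAP1 and 71.1 CPM in shEmpty. COL1A2 had 12250 counts in shPRAME, 2529 in shBAP1 and 119 in shEmpty, and was 105-fold higher in shPRAME (88.1 to 127) and 26.8-fold higher in shBAP1 (22.3 to 32.5). PDGFRB was 4.98-fold higher in shPRAME. Among the 4 genes below the count minimum, COL1A1 had 23 counts in shPRAME, 3 in shBAP1 and 1 in shEmpty, COL3A1 13, 66 and 1, DCN 49, 40 and 20, and THY1 4, 3 and 0. The part of these genes in the S100A4 values was not tested. Of 10 keratinocyte genes 1 was measured (KRT10), and their summed level was 28.4 CPM in shPRAME, 54.6 CPM in shBAP1 and 35.1 CPM in shEmpty, with KRT1 and IVL at 0 counts in every library. Of 16 epidermal differentiation genes, which lie in the same region of chromosome 1, 1 was measured, and the summed level was 33.7 CPM in shPRAME, 20.7 CPM in shBAP1 and 16.5 CPM in shEmpty. Of 6 endothelial genes 2 were measured, with a summed level of 51.2 CPM in shPRAME, 13.001 CPM in shBAP1 and 79.4 CPM in shEmpty.

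The annexins are the main protein partners of the family. Of 14 annexin genes 7 were measured, and none reached the 2-fold limit against shEmpty in shPRAME or in shBAP1. Most measured genes were not called either, as 19.3% were called in shPRAME and 14.1% in shBAP1. The median log2 ratios of the 7 were -0.15 and -0.27. ANXA2, which binds S100A10, was at 383 CPM in shPRAME, 586 CPM in shBAP1 and 506 CPM in shEmpty, with ratios of 0.757 in shPRAME (0.734 to 0.781) and 1.16 in shBAP1 (1.13 to 1.19). As for S100A10, shPRAME was the lowest library. ANXA1, which binds S100A11, was at 610 CPM in shPRAME, 668 CPM in shBAP1 and 429 CPM in shEmpty. Its lowest library was shEmpty, whereas that of S100A11 was shBAP1. ANXA11, which binds S100A6, was at 158 CPM, 94.0 CPM and 136 CPM in the same order of libraries. For ANXA11 and S100A6 alike, shBAP1 was the lowest library. ANXA5 was at 499 CPM in shPRAME, 548 CPM in shBAP1 and 785 CPM in shEmpty. ANXA7, the other named annexin, had a ratio to shEmpty of 0.895 in shPRAME and 0.630 in shBAP1.

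Of 7 genes listed as receptors of extracellular S100 proteins 5 were measured, and 3 of these were higher in shPRAME (CD36, FGFR1 and TLR4) and none lower. In shBAP1 1 was higher (CD36) and 1 lower (FGFR1). Among all measured genes 10.2% were higher in shPRAME, and in shBAP1 5.53% were higher and 8.56% lower. AGER, which encodes RAGE, was below the count minimum with 32 counts in shPRAME, 30 in shBAP1 and 25 in shEmpty. CD36, a scavenger receptor, was 10.1-fold higher in shPRAME (7.87 to 13.03) and 9.01-fold higher in shBAP1 (7.02 to 11.7). TLR4 was higher in shPRAME with a log2 ratio of 1.58, and its ratio in shBAP1 was 1.80 (1.53 to 2.12). FGFR1 was 4.11-fold higher in shPRAME (3.72 to 4.54) and 4.98-fold lower in shBAP1. BSG (basigin) had ratios of 1.45 in shPRAME and 0.649 in shBAP1, and ALCAM ratios of 1.12 and 0.802.

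Of 21 measured intracellular S100 partners, 2 were higher and 2 lower in shPRAME and 1 was higher and 4 were lower in shBAP1. Over all measured genes the called share was 19.3% in shPRAME and 14.1% in shBAP1. The median log2 ratios of the partners were -0.01 and -0.20. FGF1, a cargo of the release route that uses S100A13, was 6.68-fold higher in shPRAME (4.44 to 10.4) and 4.35-fold higher in shBAP1 (2.81 to 6.94), on 27 counts in shEmpty. SYT1, the synaptotagmin of the same complex, was 2.84-fold higher in shPRAME (2.63 to 3.06) and 5.34-fold lower in shBAP1, an order of libraries that S100A13 had as well. CACYBP, the calcyclin-binding protein named for S100A6, was 2.16-fold lower in shPRAME and had a ratio of 0.713 in shBAP1 (0.684 to 0.744). LPXN was 3.29-fold lower in shPRAME. In shBAP1 the scaffold IQGAP1 was 4.25-fold lower, the channel TRPM4 3.31-fold lower and MYH10, a nonmuscle myosin heavy chain, 2.18-fold lower. AHNAK, the giant scaffold bound by S100A10 with annexin A2, had ratios of 1.17 in shPRAME (1.16 to 1.19) and 0.831 in shBAP1 (0.820 to 0.843).

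The plasminogen system that S100A10 serves was mostly higher in shPRAME, where S100A10 itself had its lowest level. Of 6 measured genes 4 were higher and none lower in shPRAME, and none was called in shBAP1. Among all measured genes 10.2% were higher in shPRAME, and 14.1% were called in shBAP1. Of the 6, PLAUR was 5.42-fold higher in shPRAME, SERPINE2 2.10-fold and the tissue plasminogen activator PLAT 2.09-fold (2.04 to 2.14). ENO1, a glycolytic enzyme that also binds plasminogen, had a ratio of 0.633 in shPRAME and 0.744 in shBAP1. Of 31 other measured EF-hand genes, 3 were higher and 1 lower in shPRAME and 2 were higher and 1 lower in shBAP1. The called share over all measured genes was 19.3% in shPRAME and 14.1% in shBAP1. NCALD, neurocalcin, was 124-fold higher in shPRAME (34.0 to 1029.8) and 87.1-fold higher in shBAP1 (23.7 to 726), on 2 counts in shEmpty. GCA (grancalcin) was 3.85-fold higher in shPRAME and 2.94-fold higher in shBAP1, RCN3 2.69-fold higher in shPRAME and 2.76-fold lower in shBAP1, and the calcineurin subunit PPP3R1 2.30-fold lower in shPRAME. NUCB2 had ratios of 1.92 in shPRAME and 0.978 in shBAP1.

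**Figure D4:**
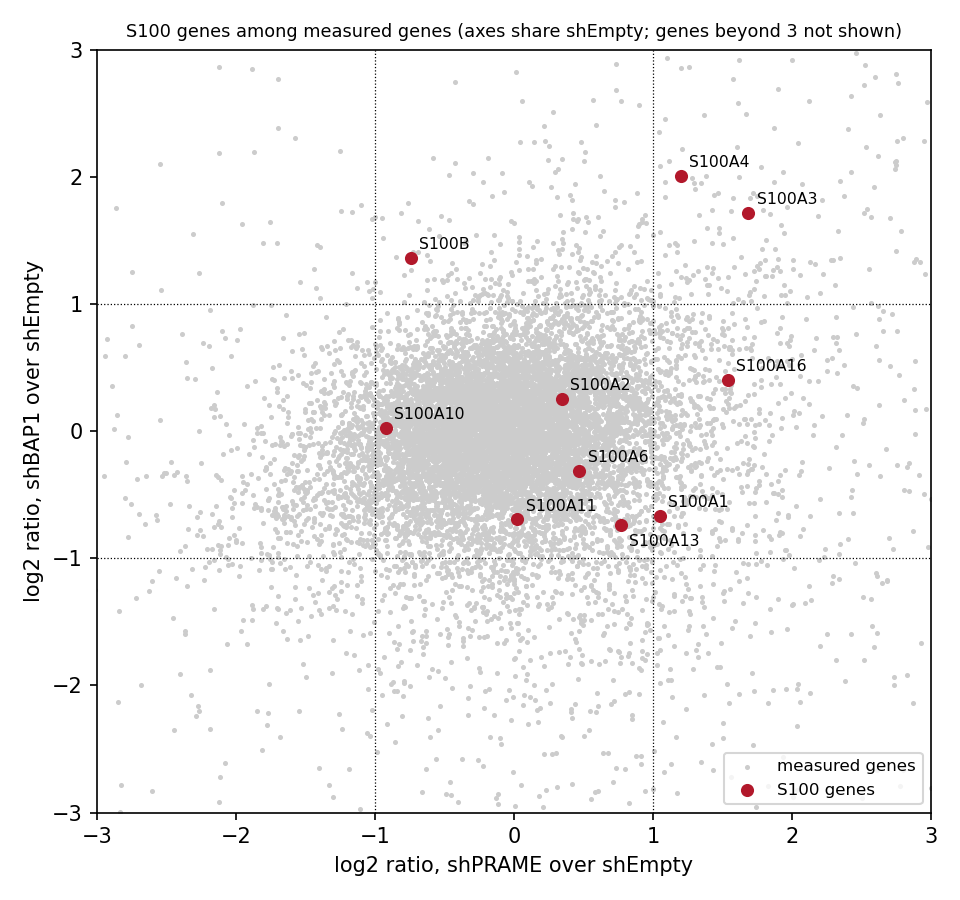
Log2 ratio of each measured gene in shPRAME over shEmpty (x axis) and in shBAP1 over shEmpty (y axis), with the 10 S100 genes labelled; both axes share the shEmpty library, and 408 measured genes beyond 3 on either axis are not shown. S100A3 and S100A4 lie past 2-fold on both axes, S100B lies at upper left, and S100A1 and S100A13 lie close together at lower right.

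The genes with the pattern over the 3 libraries most like that of a called S100 gene were found by distance in the plane of both log2 ratios to shEmpty, among genes with a mean of at least 500 counts. Nearest to S100B were IL6R (distance 0.0026), ZEB2 (0.10) and PAK1IP1 (0.12). Nearest to S100A4 were VCAN (0.15), NEDD9 (0.34) and TRIM58 (0.38). By these distances the nearest gene lay farther from S100A4 than from S100B. The distances take no account of counting error. In shPRAME over shEmpty the log2 interval ran from -0.87 to -0.62 for S100B and from 1.22 to 2.18 for S100A3. Whether the order of the near genes goes beyond counting error was not tested. VCAN, the matrix proteoglycan versican, was at 63.0 CPM in shPRAME, 95.6 CPM in shBAP1 and 25.6 CPM in shEmpty. Nearest to S100A3 were PGPEP1 (0.13), LINC01004 (0.16) and COL7A1 (0.23). Nearest to S100A1 were GDF15 (0.048), CTBS (0.072) and DOCK5 (0.097), and nearest to S100A16 were PHLDB1 (0.075), CD68 (0.076) and TPST1 (0.081). S100A13 is called in no comparison with shEmpty and was not searched.

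Along chromosome 1 some adjacent measured S100 genes had ratios to shEmpty apart beyond counting error, and others did not. The intervals of S100A4 and S100A3 overlapped in both comparisons. In shBAP1 those of S100A2 and S100A16 and those of S100A13 and S100A1 overlapped as well. In RefSeq order the measured members run S100A10, S100A11, S100A6, S100A4, S100A3, S100A2, S100A16, S100A13 and S100A1. In shPRAME their log2 ratios to shEmpty were -0.92, 0.02, 0.47, 1.20, 1.69, 0.35, 1.54, 0.77 and 1.05 in that order. In shBAP1 they were 0.03, -0.69, -0.31, 2.01, 1.72, 0.26, 0.41, -0.74 and -0.66, so the genes called higher there were the adjacent S100A4 and S100A3. Of 17 measured neighbours outside the family 1 was higher and 1 lower in shPRAME, and none was higher and 1 lower in shBAP1. The called share over all measured genes was 19.3% in shPRAME and 14.1% in shBAP1. The median log2 ratios of the neighbours were -0.29 and -0.07. SLC27A3 was 4.82-fold higher in shPRAME (3.85 to 6.09), THEM4, the listed neighbour next to S100A10, 3.30-fold lower in shPRAME, and TDRKH 2.08-fold lower in shBAP1. RAB13 had ratios of 1.84 in shPRAME and 1.63 in shBAP1, and RPS27 ratios of 0.555 and 1.28. CHTOP, the listed neighbour next to S100A1, had log2 ratios of -0.47 in shPRAME and -0.06 in shBAP1.

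**Figure D5:**
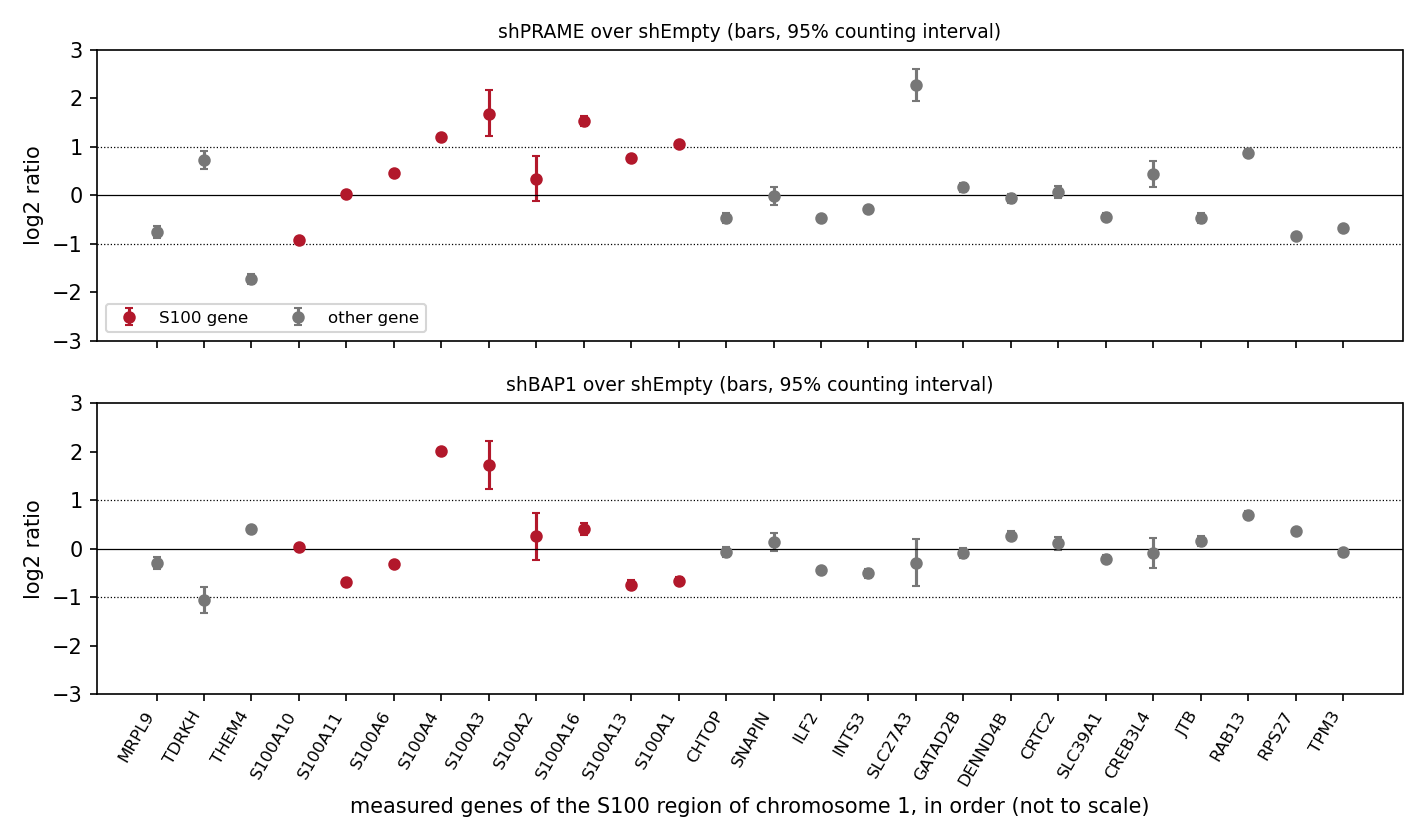
Log2 ratio to shEmpty of measured genes of the S100 region of chromosome 1 in shPRAME (top) and shBAP1 (bottom), in gene order and not to scale, with 95% counting intervals. In shPRAME 4 S100 genes lie above the 2-fold line, in shBAP1 S100A4 and S100A3 do, and most other genes lie between the dotted lines.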

How the data were processed

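Purified messenger RNA went into directional libraries that were read as 100-base pairs, per the labels' protocols. The values are whole-number read counts per gene, as deposited by the authors, with no row that lacks a gene name. The tools FastQC, TopHat, Cufflinks and edgeR and the build hg19 (GRCh37) are named, per the submitters' processing notes. How reads were counted, on which annotation and with which strand setting is not given in the sources used here. Libraries held 14181829 to 19430130 counts, which sets the counting intervals and floors.

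Counts were scaled with TMM factors over the 3 libraries (edgeR 4.0.16, R 4.3.3), and ratios had no pseudocount. Ratio intervals are exact conditional-binomial and level intervals exact Poisson, both at 95%; a count of 0 was set to 3 counts. Genes with a mean of at least 50 counts were measured, and calls needed a 2-fold ratio with an interval that left out no change. The 10 members, the related gene lists and the naming rule (each member, up to 5 genes per list by largest ratio, known partners, and 3 nearest patterns per called member) were chosen with earlier results of these data known. Genes outside that rule, marker genes included, were named after their values were seen. A few results on listed genes are not reported here.

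Transcript lengths and overlaps came from GENCODE 29 (GRCh38), matched by symbol, older symbols included, for 95.3% of measured genes, and gene order and upstream sequences from RefSeq (GRCh38.p14, 9 of 10 members). These builds differ from that of the files and served only for lengths, names, order and sequences. The procedure was tested on simulated data with counting error only. The alternatives tried were scaling by total count, by upper quartile and with DESeq2 size factors (1.42.0), no count minimum and a 1.5-fold limit. Calculations used Python 3.11.15, numpy 2.4.6, scipy 1.17.1, pandas 2.3.3 and matplotlib 3.10.9.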

Additional observations from a re-analysis of the deposited data

How the results depend on the processing

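The S100 calls against shEmpty were the same genes under total-count, upper-quartile and DESeq2 scaling and without a count minimum: S100A1, S100A3, S100A4 and S100A16 in shPRAME and S100B, S100A3 and S100A4 in shBAP1. In shPRAME over shBAP1, total-count scaling added S100A10 as lower, for 5 calls in place of 4. No member's ratio changed sign in any of the 90 recomputed values over the 3 scalings, of which 23 moved beyond the counting interval. A 1.5-fold limit gave 7 S100 calls in shPRAME over shEmpty, 6 in shBAP1 over shEmpty and 8 in shPRAME over shBAP1, where S100A13, S100B and S100A10 joined in the first, S100A1, S100A11 and S100A13 in the second, and S100A6, S100A11, S100A4 and S100A10 in the third. Of the 11956 measured genes that limit called 4903, 3645 and 5749 in the same order, against 2311, 1685 and 3006 at 2-fold. Without a count minimum the 2-fold limit called 3774, 3016 and 4727 of a larger set, the 19528 genes with any count. In shBAP1 over shEmpty, the median of all genes shifted by 0.12 (log2) with total-count scaling. No paired analysis was possible because each group was 1 library. With 1 library per group the spread between cultures is unknown, and the low counts of S100A2 and S100A3 limit their ratios most.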
